A study of Mus musculus with 189 samples.

Results

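Prss34 encodes a secreted tryptase, mouse mast cell protease 11, and the 94 mature peritoneal mast cells of the series fell into cells that had its RNA in quantity and cells that had almost none. The cells were divided by their own Prss34 value at 100 CPM (a gene's reads in a cell, scaled so that all reads on mouse genes in that cell sum to 1000000). This gave 37 Prss34-high and 57 Prss34-low cells, out of 189 sequenced cells in all. Since Prss34 chose the groups, its values are given below as a description, and what follows asks what else differed between the groups.

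The study profiled late mast cell differentiation by sequencing poly(A) RNA of single peritoneal cells of 4 female mice of the C57BL/6 strain, with no genetic change or treatment named in the labels and no age given. The mature mast cells were live, lineage-negative cells that carried c-Kit and the FcεRI receptor for IgE at the surface, with low integrin β7 and high side scatter. The other 95 cells were basophil-mast cell progenitors (BMCPs) from the same compartment, of which 93 passed the quality filter and served as cells that the division of the mature cells had not used. Which mouse a cell came from is not labelled, and each group was therefore 1 pooled sample. No test between groups was possible, and intervals cover the counting of reads or of cells only, not differences between mice.

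Connective tissue mast cells of the peritoneum store proteases in secretory granules, bound to heparin carried by serglycin. Tryptases cleave after basic residues, chymases after aromatic residues, and carboxypeptidase A3 trims the ends of peptides. The tryptase genes lie in a cluster on chromosome 17. Prss34 is best known as a protease of basophils. Transcription of mast cell proteases depends in part on GATA2, which binds GATA motifs, and on MITF, which binds E-box motifs such as CATGTG.

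The bases upstream of Prss34 and of its nearest tryptase neighbours are shown because the expression of Prss34 and Prss28 turned out to overlap in the same cells. Each line holds the 250 bases before the annotated start on the plus strand, from RefSeq on GRCm38.p6, with capitals for a match to a GATA motif or to the M-box. The GATA motif was AGATAA or, as variants, any of AGATAG, the form TGATAA and the form TGATAG, and the M-box was the word CATGTG, all searched on both strands. The windows are chr17:25298144-25298393 for Prss34, chr17:25308396-25308645 for Prss28 and chr17:25318404-25318653 for Prss29.
Prss34: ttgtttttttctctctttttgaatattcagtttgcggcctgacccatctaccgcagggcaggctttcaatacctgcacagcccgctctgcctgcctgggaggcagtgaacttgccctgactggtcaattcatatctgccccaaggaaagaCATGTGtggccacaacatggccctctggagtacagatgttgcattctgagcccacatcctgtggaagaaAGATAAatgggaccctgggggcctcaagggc
Prss28: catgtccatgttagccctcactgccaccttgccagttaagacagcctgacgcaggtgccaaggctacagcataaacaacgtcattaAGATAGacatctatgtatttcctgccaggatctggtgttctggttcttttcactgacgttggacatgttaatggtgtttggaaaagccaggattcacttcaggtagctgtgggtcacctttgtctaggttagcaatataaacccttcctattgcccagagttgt
Prss29: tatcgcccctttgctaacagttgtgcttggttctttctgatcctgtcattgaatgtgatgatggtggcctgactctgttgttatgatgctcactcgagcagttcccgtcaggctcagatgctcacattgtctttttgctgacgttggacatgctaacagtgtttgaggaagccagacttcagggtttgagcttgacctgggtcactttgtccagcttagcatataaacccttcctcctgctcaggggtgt
The Prss34 window held AGATAA with its first base at -31 and CATGTG at -100 from the start. The Prss28 window held AGATAG at -164 and the Prss29 window held neither motif. Of 32851 promoter windows of the same length, 26.5% held a GATA motif and 12.3% held CATGTG, so such matches were common and are a description of letters only. The longest runs shared by Prss28 and Prss29 were of 15 bases, ctgacgttggacatg starting at -112 in Prss28 and atataaacccttcct starting at -30, against 7 between Prss34 and Prss28 and 8 between Prss34 and Prss29. Tpsb2 and Tpsab1 were not in the promoter table.

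Prss34 RNA was close to all or none in the mature mast cells. In the 37 high cells it ran from 277 to 29397 CPM with a median of 7197, and in the 57 low cells from 0 to 10.96 CPM with a median of 4.41. The values nearest to the limit were 8.90, 8.95 and 10.96 CPM below it and 277, 557 and 1888 CPM above it, so no cell lay between 10.96 and 277 CPM. Of the low cells, 56 of 57 still had at least 1 read, and the source of these few reads was not tested. Such a gap was rare but not confined to Prss34. Among 2585 genes that 20% to 80% of the mature cells had at 100 CPM or more, the 25.3-fold gap of Prss34 came after that of Vps52 (90.9-fold), Cdkn2d (58.4-fold) and Idh3a (28.4-fold).

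**Figure D1:**
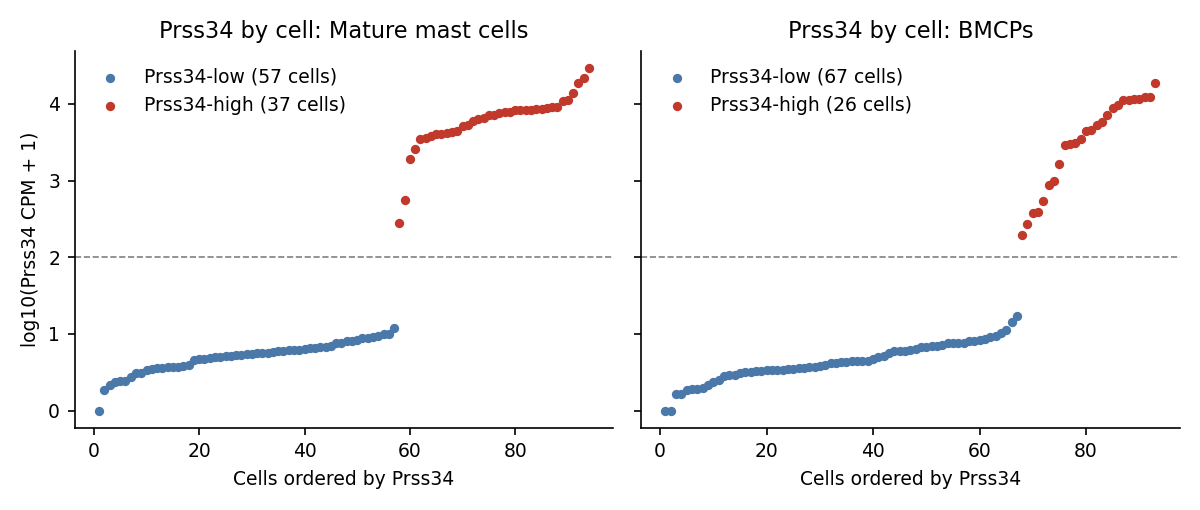
Prss34 in each mature mast cell (left) and each BMCP (right), ordered by value, as log10 of CPM + 1, with the dashed line at 100 CPM. The 57 low mature cells end at 10.96 CPM and the 37 high cells begin at 277 CPM, and BMCPs show the same break between 16.2 and 191 CPM.

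Prss34-high cells were 39.4% of mature mast cells (95% Clopper-Pearson interval 29.4 to 50.0). They were 27.96% of BMCPs (26 of 93, 19.1 to 38.2). These intervals take each cell as independent and leave out differences between mice, so the shares are given without a comparison. BMCPs under 100 CPM of Gzmb, which encodes the granule protease granzyme B, had 9 of 33 Prss34-high cells and the other BMCPs 17 of 60. The mature cells stood in the table as separate runs of 47 columns, which the labels do not call batches. The study used 2 plates of 96 wells. Cell titles name no plate, so whether the runs match plates cannot be told. The first run, cells 1 to 47, held 18 high cells and the second, cells 48 to 94, held 19.

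Both groups carried the mast cell identity of their sort. Kit had 998 CPM in the high and 969 CPM in the low cells, Fcer1a 4297 and 3564 CPM, and Gata2 1038 and 1042 CPM. Depth was alike, with a median of 1217719 endogenous reads per high cell (619662 to 1987370) and 1325180 per low cell (561600 to 2152221). The median number of endogenous reads per spike-in read was 972 in the high and 907 in the low cells, and the median share of mitochondrial reads was 0.876% and 0.864%. After thinning every cell to 500000 reads, the medians were 3577 and 3530 detected genes, and without thinning they were 4145 and 4130. None of the 1171 runs of 50 bases of Prss34, nor of the 1167 of Prss28, occurred exactly in an annotated transcript of another gene. Matches with mismatches or outside annotated transcripts were not searched.

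Prss28, the nearest tryptase gene to Prss34, stood out from the cluster. It encodes a tryptase known from the uterus and lies 8.5 kb downstream of Prss34 on the same strand (ENSMUSG00000024171, chr17:25308646-25311876 in GRCm38). The high cells had 1839 Prss28 reads in all and the low cells 3, or 40.5 and 0.0408 CPM. The ratio was 992 with a counting interval of 339 to 4816. This interval, like that for BMCPs below, takes each read as independent, although PCR copies are counted. Cell 28 alone held 815 of the reads. Most high cells lacked it: 26 of 37 had no read, 3 had 1 to 4 reads, and 8 had at least 5 reads. Those 8 cells had 616, 246, 205, 153, 142, 133, 124 and 31.4 CPM. All were Prss34-high, and no low cell had more than 1 read. Prss28 reached 100 CPM in 7 of 37 high cells (18.9%, 7.96 to 35.2) and in 0 of 57 low cells, which allows up to 6.27%.

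Prss28 reads were a small and uneven fraction of Prss34 reads in these 8 cells. The fraction ran from 0.712% in cell 9, with 4413 CPM of Prss34, to 7.19% in cell 28, with 8568 CPM. The cells were not those with most Prss34: they had between 4077 and 10931 CPM, within the range of the other high cells. The log2 ratio of CPM + 1 was 5.32 over all cells, 6.08 in the first run of columns and 3.73 in the second. Leaving out the cell with most Prss28 in each group gave 4.56.

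The BMCPs, which the division of the mature cells had not used, had the same arrangement. Their 26 Prss34-high cells held 462 Prss28 reads and their 67 low cells 3 reads, a ratio of 438 (149 to 2133). The 4 BMCPs with at least 5 reads had 315, 174, 57.3 and 32.0 CPM, and all 4 were Prss34-high. In BMCPs under 100 CPM of Gzmb no Prss34-high cell had a Prss28 read. Prss29, next along the chromosome, had 0 reads in the high and 1 read in the low mature cells, and none in BMCPs, so the nearest gene beyond Prss28 was not detectable in either group.

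The abundant tryptases showed no such division. Tpsb2, mast cell protease 6, had 89643 CPM in the high and 75011 CPM in the low mature cells, a log2 ratio of 0.26, with medians of 87983 and 75126 CPM. The quartiles were 76380 and 105267 CPM in the high cells and 64895 and 86344 CPM in the low cells, so the groups overlapped widely. Tpsab1, mast cell protease 7, had 1113 and 1563 CPM (log2 ratio -0.49), and 28 of 37 high and 45 of 57 low cells had it at 100 CPM or more. Tpsg1, the membrane-anchored γ tryptase, had 1639 and 1684 CPM (-0.04). Some of its possible reads, 7.60% of its runs of 50 bases, also match Cacna1h, an overlapping neighbour. Per kb of exon, the high cells had 6218 CPM of Prss34, 56238 of Tpsb2, 1180 of Tpsg1, 531 of Tpsab1 and 33.3 of Prss28.

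In BMCPs the Prss34-high cells were all among those that had Tpsb2 in quantity. Tpsb2 was under 1000 CPM in 0 of 26 Prss34-high BMCPs (interval up to 13.2%) and in 22 of 67 low BMCPs (32.8%, 21.8 to 45.4). Its pooled level was 72009 CPM in the high and 40368 CPM in the low BMCPs (log2 ratio 0.83). No mature cell of either group was under 1000 CPM. Mrgprb1, a receptor of the Mas-related family, reached 100 CPM in 17 of 26 high and 25 of 67 low BMCPs, and Mcpt4, a chymase, in 13 of 26 and 25 of 67.

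**Figure D2:**
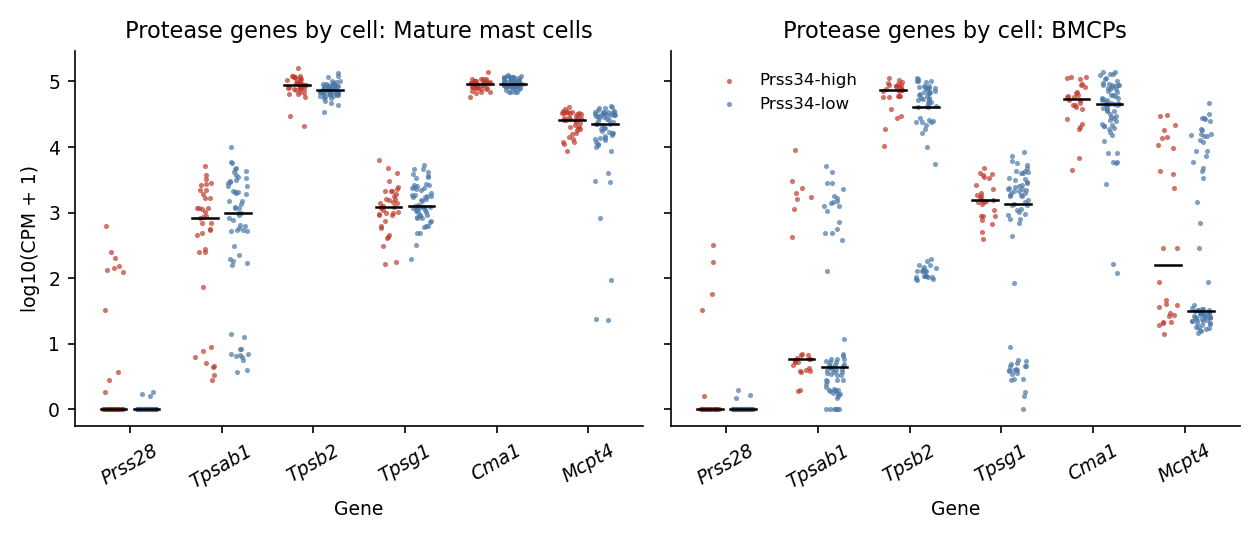
Protease genes in each mature mast cell (left) and BMCP (right), as log10 of CPM + 1, with a black bar at the median of each group. Prss28 has at least 5 reads only in 8 Prss34-high mature cells and 4 Prss34-high BMCPs, while Tpsb2, Tpsab1, Tpsg1, Cma1 and Mcpt4 overlap between the groups of mature cells.

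The other granule genes were at close to equal levels in the mature groups. Of the 13 genes on the mast cell granule list, all 13 were measured above 5 CPM and 0 differed by 2-fold, with a median log2 ratio of -0.02. Over all 10092 genes that reached 5 CPM in either group, 13.2% were at least 2-fold higher in Prss34-high cells and 16.6% at least 2-fold lower, with a median of -0.06. Cpa3, carboxypeptidase A3, had 74367 and 73060 CPM (0.03). Cma1, the chymase, had 91186 and 94691 CPM (-0.05), and Mcpt4 25305 and 21721 CPM (0.22). In 4 of 57 low cells and 0 of 37 high cells Mcpt4 was under 1000 CPM, and 5.48% of its runs of 50 bases occur also in Cma2 or Mcpt9. Srgn, serglycin, was at 0.08, Hdc, the histamine-forming enzyme, at 0.01, Slc18a2, the vesicular amine transporter, at -0.08, and Ndst2, a heparin sulfotransferase, at -0.29 on the log2 scale. Taken per cell, the list made up a median of 29.8% of endogenous reads in the high and 28.2% in the low cells.

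Ctsg, cathepsin G, had the largest ratio of the list. It had 599.4 CPM in the high and 299.4 CPM in the low cells, which is just over 2-fold. Its log2 ratio of CPM + 1 was 0.999, under the 2-fold limit only because 1 CPM was added. Fewer high than low cells had it at 100 CPM, 15 of 37 against 28 of 57. Its ratio was 0.57 without the cell with most reads in each group, 1.79 in the first run of columns and -0.23 in the second. Of the mucosal chymase genes, Mcpt2 was at 2.27 because of high cell 77, and at 0.26 without the cell with most reads in each group. Mcpt1 and Mcpt9 were below the minimum of 5 CPM.

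Genes of basophils did not accompany Prss34 as a set in the mature cells. Of 9 basophil genes other than Prss34, 5 were above 5 CPM, 1 was at least 2-fold higher and 0 lower. Their median log2 ratio was 0.26 against -0.06 for all genes, of which 13.2% were higher and 16.6% lower. With 5 measured genes, such counts cannot be told from those rates. Mcpt8, the granule protease that marks basophils, had 30.1 and 30.3 CPM and reached 100 CPM in 3 of 37 high and 3 of 57 low cells. Cd200r3, an activating receptor of basophils and mast cells, had 622 and 518 CPM (0.26). Il4, a cytokine of both lineages, had 50.5 and 84.7 CPM (-0.73), and Il6 6.70 and 3.21 CPM (0.87). Osm, the cytokine oncostatin M, was the 1 gene past 2-fold, with 61.2 and 24.7 CPM (1.27), in 7 of 37 and 5 of 57 cells at 100 CPM. Cebpa, a transcription factor of granulocytes, and Il18rap had no read in either group. In BMCPs the log2 ratio of Mcpt8 was -2.22, with 6 of 26 Prss34-high and 33 of 67 Prss34-low cells at 100 CPM. Cd200r3 was at 0.69 and Osm at 1.90 in the BMCPs. Among BMCPs under 100 CPM of Gzmb, Mcpt8 was at -0.59, with 1 high and 1 low cell at 100 CPM. There Cd200r3 was at 0.14 and Osm at 0.70, or -0.05 without the cell with most Osm reads in each group.

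The rest of the profile did not divide with Prss34 among abundant genes. Of 180 genes that reached 500 CPM in either group, 0 differed by 2-fold in either direction in the ratio of CPM + 1. Their log2 ratios ran from -0.60 to 0.999, that of Ctsg, with quartiles of -0.19 and 0.08. Among 2348 genes with at least 50 CPM and a read in at least 50% of the cells of the higher group, 2.39% were at least 2-fold higher in the high cells and 3.71% lower. The larger shares over all genes included genes at lower levels or read in fewer cells, and the reason for them was not tested.

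**Figure D3:**
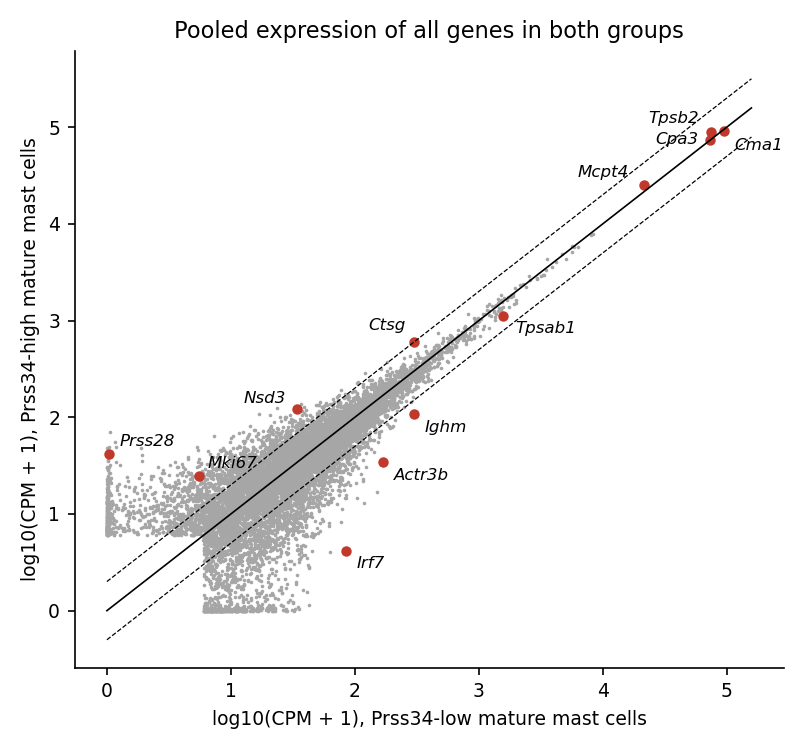
Pooled CPM of every gene reaching 5 CPM in either group, Prss34-low cells on the x axis and Prss34-high cells on the y axis, as log10 of CPM + 1, with equality as a solid line and 2-fold as dashed lines. Cpa3, Cma1, Mcpt4 and Tpsb2 lie along the line, Ctsg lies at the upper 2-fold line, and Prss28, Irf7, Actr3b and Ighm lie outside the lines.

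Prss34-high cells had no larger share of Prss34-high neighbours than low cells had when cells were placed by the other genes. On 10 principal components of the 1000 most variable genes, with Prss34 left out, 45.1% of the 10 nearest neighbours of a high cell were Prss34-high. Around a low cell the share was 48.1%. An even mixture would give 38.7% and 39.8%, below both shares, and the reason was not tested. The first and second components held only 3.23% and 1.77% of the variance, so this placement could miss a difference in few genes. With 500 genes the shares were 45.7% and 45.97%.

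**Figure D4:**
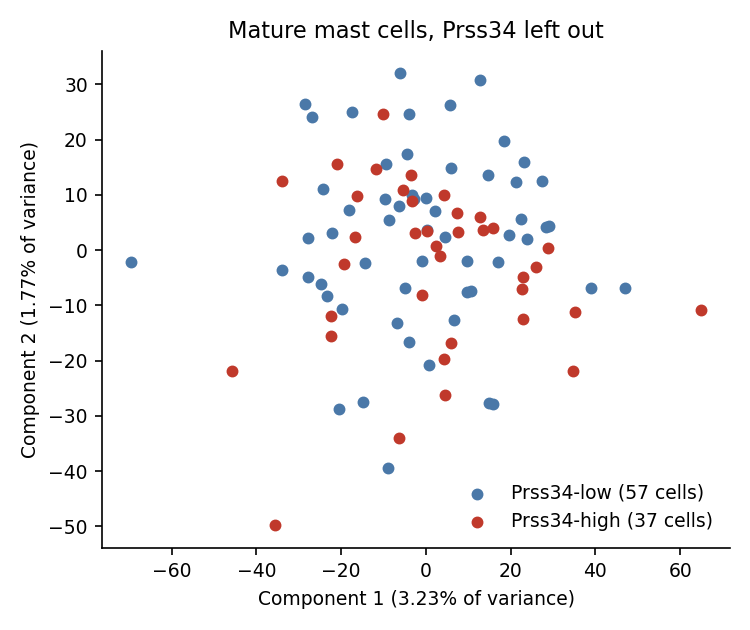
The first and second principal components of the 94 mature mast cells, computed without Prss34, with Prss34-high cells in red and Prss34-low cells in blue. The components hold 3.23% and 1.77% of the variance, and the groups are spread through each other.

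Genes of mast cell signalling were mostly at similar levels, where 13.2% of all genes were at least 2-fold higher and 16.6% lower. Of 16 measured genes of the IgE receptor pathway, 1 was at least 2-fold higher, the adaptor Gab2, which was under 7 CPM in both groups, and 1 lower, the phospholipase Plcg1. Plcg1 had 16.6 and 74.2 CPM (-2.09) and reached 100 CPM in 4 of 37 high and 13 of 57 low cells. Ms4a2, the β chain of the receptor, had 632 and 676 CPM (-0.10). Of 25 measured surface receptors, 1 was higher and 2 lower, with a median of -0.20. The higher one was Mrgpra4, a receptor of the Mas-related family, with 128 and 53.4 CPM (1.24) and 17 of 37 against 16 of 57 cells at 100 CPM. It was at 1.17 and 1.42 in the runs of columns and at -0.08 in BMCPs. The lower ones were Pilrb1 (-1.20) and Il9r, which was under 7 CPM in both groups. Milr1, an inhibitory receptor of mast cells also called allergin-1, was at 100 CPM in 19 of 37 high and 44 of 57 low cells (242 and 410 CPM, -0.76), whereas in BMCPs 15 of 26 high and 30 of 67 low cells reached that level.

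Regulators and processing genes differed in both directions, read against 13.2% of all genes 2-fold higher and 16.6% lower. Of 18 measured transcription factors, 1 was higher and 1 lower, with a median of 0.07. The first was Tcf4, read in quantity in a single cell, and the second Gfi1b, at 6.33 CPM in the low cells. Gata1 had 272 and 208 CPM (0.39) and Mitf 80.7 and 108 CPM (-0.41). Of 17 genes of heparin synthesis, 4 were higher and 3 lower (median -0.02). Extl2, a glycosyltransferase of heparan sulfate formation, had 45.6 and 11.8 CPM (1.86), and Ext1, a subunit of the polymerase, 48.3 and 126 CPM (-1.36). Of 18 genes of the secretory pathway in the endoplasmic reticulum, 1 was higher: Rpn1, a subunit of the oligosaccharyltransferase, with 372 and 182 CPM (1.02). Of 16 genes of granule exocytosis, 0 were higher and 1, Rab3d, was lower (29.8 and 72.4 CPM, -1.25).

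Maturation lists, which were picked from these same cells and are no independent evidence, did not sort the groups along one axis. Their counts stand beside 13.2% of all genes 2-fold higher and 16.6% lower. Of 10 measured genes of a progenitor set, 1 was higher and 3 lower in the high cells, with a median of -0.62. Of 10 genes of a mature set, 0 were higher and 2 lower, with a median of -0.20. The lower genes were Maf, Napsa and Nkg7 in the first, each under 32 CPM, and Actr3b and Zfand5 in the second. The progenitor set's median was 0.20 in the first run of columns and -0.88 in the second.

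Irf7 had a large ratio on the interferon response list, through a subset of low cells. Of 12 genes, 6 were above 5 CPM, 0 were at least 2-fold higher and 2 lower, where 16.6% of all genes were lower, and 5 of the 6 had a ratio below 0 (median log2 ratio -0.69). Irf7, a transcription factor of the type I interferon response, had 3.13 CPM in the high and 84.3 CPM in the low cells (-4.37). It reached 100 CPM in 1 of 37 high cells (2.70%, 0.0684 to 14.2) and in 15 of 57 low cells (26.3%, 15.5 to 39.7), so 42 low cells also lay under that level. Both runs of columns had the same direction, with -4.17 and -5.20. The share of cells at 100 CPM, high minus low, differed by -39.3 percentage points in the first run and -7.14 in the second. Most of the difference in share thus lay in the first run. In BMCPs the ratio was 0.25, with 2 of 26 and 4 of 67 cells at 100 CPM.

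Ighm, the constant region of the IgM heavy chain, had the largest difference in the share of cells among genes lower in the high cells. It had 108 CPM in the high and 302 CPM in the low cells (-1.47), with medians of 1.01 and 268 CPM. It reached 100 CPM in 9 of 37 high cells (24.3%, 11.8 to 41.2) and in 34 of 57 low cells (59.6%, 45.8 to 72.4), with the same ratio of -1.47 in each run of columns. In BMCPs the shares were 6 of 26 and 17 of 67, and the log2 ratio of -1.80 was -0.41 without 2 BMCPs that had other B cell genes. Of the 9 genes of the B cell list, Cd79b was the only other one above 5 CPM in the mature cells, with 17.8 and 32.0 CPM. The summed list ran from 0 to 984 CPM per high cell and from 0 to 1356 CPM per low cell, and its part in the result was not tested.

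Most defining markers of other cells were at or near 0 in both groups. Lists of natural killer, dendritic, neutrophil, erythroid, mesothelial and fibroblast genes had at most 16 reads in a group. Of the 7 T cell genes, Cd3d, Cd3e, Cd3g, Cd8a, Lck and Trac had no read, and Cd4 was in quantity in 1 high and 1 low cell. Of the 9 macrophage genes, 6 including Adgre1, Csf1r and Cd68 had no read. Apoe had 5952 and 5624 CPM in the high and low cells, and Lyz2, lysozyme, had 1 read in the high and 411 in the low cells, of which 410 were in cell 73. Of the 7 eosinophil genes, Epx, Prg2, Ear2 and Ccr3 had no read, Siglecf was in quantity in 1 high cell, and Il5ra had 15.4 and 15.5 CPM, with 2 high and 3 low cells at 100 CPM. Of the 5 megakaryocyte and platelet genes, Pf4, Ppbp and Gp9 had no read. Itga2b, an integrin chain, had 198 and 247 CPM (-0.32), with 18 of 37 high and 33 of 57 low cells at 100 CPM.

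Genes of cell division were higher in the high group through 2 cells. Of 43 measured genes of the G2/M phase, 28 were higher and 1 lower, with a median log2 ratio of 2.14. Cells 59 and 70, both Prss34-high, had 41 and 35 list genes at 100 CPM or more, and the next cell had 8. Without these 2 cells the median was -0.02. Top2a, a topoisomerase of dividing cells, had 40.9 and 9.12 CPM, and Mki67, which marks cycling cells, 23.5 and 4.57 CPM. Of 59 measured ribosomal protein genes, 0 were higher and 7 lower, with a median of -0.03. The rates over all genes, for both lists, were 13.2% at least 2-fold higher and 16.6% lower.

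The largest ratios among genes that many cells shared lay outside these lists. The 10 highest genes were Nsd3, Dnaja3, Mfap3, Rae1, Fam208a, Mis18a, Rxylt1, Eif2b1, Cpsf6 and Farsa, with log2 ratios from 1.82 down to 1.45. Nsd3, a histone methyltransferase, had 120 and 33.4 CPM and reached 100 CPM in 16 of 37 high and 7 of 57 low cells. Dnaja3, a mitochondrial co-chaperone, had 128 and 37.997 CPM, and 14 and 4 cells at that level. Rae1, an mRNA export factor, had 118 and 39.3 CPM, but its ratio was 0.07 in the first run of columns and 2.90 in the second. Eif2b1, a subunit of the exchange factor for initiation factor eIF2, had 103 and 36.5 CPM and was alike in both runs, at 1.38 and 1.57.

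The 10 lowest genes were Rapgef2, H2-T24, Cntrl, Polr3k, Actr3b, Stk11, Osbpl5, Smad2, Traf7 and Sgms1, from -2.52 to -1.84. Actr3b, related to a subunit of the actin-nucleating Arp2/3 complex, had 33.8 and 168 CPM and reached 100 CPM in 5 of 37 high and 25 of 57 low cells. Polr3k, a subunit of RNA polymerase III, had 21.9 and 116 CPM, with 4 and 21 cells at that level. H2-T24, a non-classical class I histocompatibility gene, had 13.8 and 83.8 CPM, and Stk11, the kinase LKB1, 24.8 and 110 CPM. All 20 genes kept their direction in both runs of columns, which are parts of the data that chose them.

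These genes did not carry over to the BMCPs as a group. Of the 20 genes, 11 had the same direction in BMCPs divided at 100 CPM of Prss34, 6 of the higher and 5 of the lower ones. Past 2-fold were 1 of the 10 higher genes, where 15.6% of 10491 BMCP genes were at least 2-fold higher, and 4 of the 10 lower genes, where 29.2% were at least 2-fold lower. Among BMCPs under 100 CPM of Gzmb, 3 of the 10 higher and 4 of the 10 lower genes were past 2-fold, beside 20.4% and 38.4% of all their genes. Nsd3 was at 1.10 over all BMCPs, while Dnaja3 was at -0.95 and Cpsf6 at -1.27. Traf7 was at -1.78 and Polr3k at -1.19, while Actr3b was at 0.05 and H2-T24 at 1.94.

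**Figure D5:**
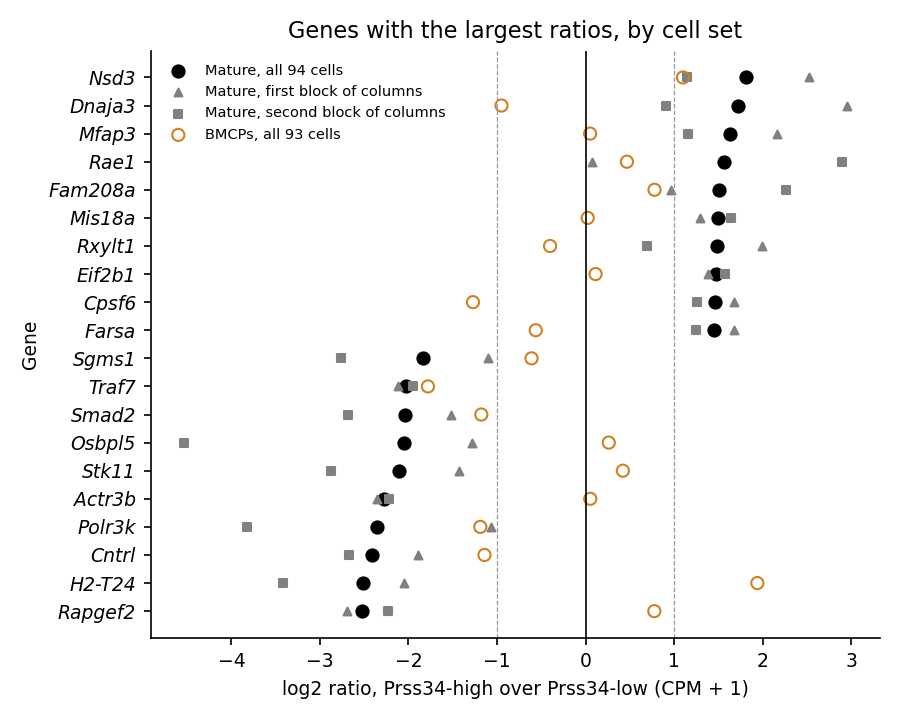
Log2 ratio of Prss34-high over Prss34-low cells (CPM + 1) for the 20 genes with the largest ratios: all mature mast cells (black), each run of their columns (grey) and BMCPs (open circles), with dashed lines at 2-fold. The mature values keep their side of 0 in both runs, and 11 of the 20 BMCP values lie on the same side.

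Ordered by the share of cells at 100 CPM, other genes came first. Rps6ka1, the kinase RSK1, reached that level in 33 of 37 high and 30 of 57 low cells, Muc13, a transmembrane mucin, in 20 and 11, and Mfsd5, a membrane transporter, in 27 and 23. Mtdh followed with 25 and 21 cells and Ncaph2, a condensin II subunit, with 21 and 14. Lower in the high cells after Ighm and Actr3b were Dcaf8, a substrate receptor of a ubiquitin ligase, in 7 of 37 and 28 of 57 cells, and Coa3, an assembly factor of cytochrome c oxidase, in 11 and 33. In BMCPs the share differed the same way for 6 of the 10 higher and 3 of the 10 lower genes. Rps6ka1 was at 100 CPM in 15 of 26 high and 49 of 67 low BMCPs, and Coa3 in 16 and 27, both the other way round.

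No gene followed Prss34 closely from cell to cell. Over the 94 cells, Spearman's rank correlation with Prss34 ran from -0.30 to 0.35 across 2468 genes with at least 20 CPM and a read in at least 50% of cells, with a median of 0.00032. All cells share the lane and the amplification protocol, and such correlations between sparse counts are a description. The highest were the processed pseudogene Gm14253 (0.35), Gm45902 (0.34), Muc13 (0.32), Mfsd5 (0.31) and Fkbp2 (0.29), and the lowest was Rsrp1 (-0.30). Over the 93 BMCPs the sign was the same for 2 of the 10 highest and 2 of the 5 lowest genes. Within the 37 high cells alone, Prss34 had a correlation of -0.03 with Tpsb2, 0.22 with Cma1, -0.34 with Mcpt4 and -0.15 with the number of endogenous reads.

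The neighbourhood of Prss34 beyond the tryptases held differences both ways, near the rates over all genes (13.2% at least 2-fold higher, 16.6% lower). Within 500 kb lay 52 named genes, of which 28 were above 5 CPM. Of these, 5 were at least 2-fold higher (Prss28, Unkl, Eme2, Rpusd1 and Narfl) and 5 lower (Fahd1, Jpt2, Telo2, BC003965 and Tsr3). None of the 10 had a share of cells at 100 CPM above 20% in the high group. Telo2, a telomere maintenance factor, had 16.1 and 75.4 CPM (-2.16) and BC003965 19.7 and 59.6 CPM (-1.55), while in BMCPs their ratios were -0.22 and -0.07. Eme2 and Rpusd1 were higher through the second run of columns, with -2.14 and -0.71 in the first.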

How the data were processed

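Per the submitters' processing notes, reads were aligned with GSNAP 2015-09-29 to mm10 and counted with HTSeq 0.5.3p3. The deposited table holds the authors' raw read counts per gene and cell, without molecular identifiers, so PCR copies are counted; strand use is not given in the sources used here. Cells needed 100000 endogenous reads, 1000 genes, at most 20% mitochondrial and 50% spike-in reads. Doublets were not called. Counts were summed per group and divided by summed endogenous reads. Ratios are log2 of CPM + 1 with 5 CPM required in the higher group, intervals are exact Poisson or Clopper-Pearson at 95%, and no test was made, since cells are not replicates. Symbols matched 98.0% of gene identifiers, and coordinates are GENCODE M21. Genes were named by the 10 largest ratios each way (50 CPM, read in 50% of cells, not set by 1 cell), the 10 largest differences in share at 100 CPM, the 10 highest and 5 lowest correlations, the protease and basophil lists, and genes within 500 kb. The groups and lists were chosen with earlier results of these data known. Python 3.11.15, pandas 2.3.3, scipy 1.17.1, scikit-learn 1.9.0, edgeR 4.0.16 and DESeq2 1.42.0 (alternative scalings only) were used. The gene-by-gene calculation was tested on simulated counts of genes of at least 20 CPM, which did not cover genes at lower levels. Some genes of the lists are not reported here.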

Additional observations from a re-analysis of the deposited data

How the results depend on the processing

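Dividing the cells at 50 or 200 CPM gave the same groups. Scaling by spike-in reads, TMM or DESeq2 factors moved no recomputed list median by more than 0.25. The medians of the heparin synthesis and ribosomal protein lists were not recomputed. The number of genes with at least 500 CPM past 2-fold was 1 in place of 0 with TMM factors, with totals without Prss34 and the granule list, with a pseudocount of 0.1 CPM, in the second run of columns and without the dividing cells, and 2 in the first run. Genes 2-fold higher and lower numbered 431 and 290 by the mean of log2 values per cell, 548 and 695 with a pseudocount of 10 CPM, and 662 and 827 with a minimum of 20 CPM, and 2520 were lower with no minimum. The progenitor set's median was -0.049 by the mean of log2 values, -0.31 after thinning, -0.32 with a pseudocount of 10 CPM, 0.20 in the first run and -0.88 in the second, and the mature set's was 0.063 in the first run. The interferon median was -0.97 by the mean of log2 values, -1.78 without the top cell of each group (that with the most reads of each gene) and -2.07 in the first run. The G2/M median was 0.40 by the mean of log2 values, 2.68 after thinning, 1.85 without the top cells, 0.87 with a pseudocount of 10 CPM, 0.00 in the first run, 3.26 in the second and -0.0195 without the dividing cells. The basophil median was 0.61 without the top cells. Eme2 turned to -0.27 by the mean of log2 values, -1.76 without the top cells and -2.14 in the first run, Mcpt2 to -2.19 and Rpusd1 to -0.71 in the first run. The cause was not tested beyond what each setting leaves out. The runs of columns, the omission of dividing cells and the omission of BMCPs with B cell genes were chosen after seeing the data. No paired analysis was possible because the number in a title names a cell and pairs no cells. Low genes rest on few cells, and mice cannot be told apart.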
